A study of Mus musculus with 8 samples.

Results

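Glucocorticoid-responsive genes and metallothioneins were followed as a set of 10 genes, Fkbp5, Tsc22d3, Zbtb16, Per1, Sgk1, Mt1, Mt2, Txnip, Errfi1 and Cebpd, which were taken by name from the 28956 genes of the count tables. The cells were femoral bone stromal cells of female C57BL/6 mice, from which haematopoietic lineage, CD45+ and CD117+ cells had been depleted with magnetic beads. Fracture cells came from mice whose left leg was broken by bending at 10 weeks of age under ketamine and xylazine anaesthesia, held with an intramedullary nail and collected at day 14; these mice also received the analgesic carprofen. Control cells came from 12-week-old wild-type mice, for which no surgery, anaesthetic or analgesic is named. Sample titles give a number after the group and a rep number. These were read as 2 preparations per group with 2 libraries each, which the titles do not state. The question was how these genes differed between fractured and unfractured bone in each kind of stromal cell.

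Glucocorticoids bind the glucocorticoid receptor, a transcription factor that moves to the nucleus and switches genes on or off through DNA elements made of inverted repeats. Fkbp5 encodes a co-chaperone that lowers the affinity of the receptor for hormone, Tsc22d3 the leucine zipper protein GILZ, Zbtb16 the zinc-finger repressor PLZF, Per1 a core repressor of the circadian clock, and Sgk1 a kinase that acts on ion channels and FOXO factors. Errfi1 encodes the inhibitor of EGF receptor family kinases MIG6, and Cebpd the transcription factor C/EBPδ. Metallothioneins, encoded by Mt1 and Mt2, are small cysteine-rich proteins that bind zinc and copper, and their genes respond to metals through MTF1 at metal response elements as well as to glucocorticoids. Txnip encodes a thioredoxin-binding arrestin that limits glucose uptake and responds to sugar, and several stimuli besides glucocorticoids act on each of these genes.

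In GRCm38 (GENCODE M21), Mt2 occupies chromosome 8 from 94172664 to 94173568 and Mt1 from 94179082 to 94180327, both on the plus strand and 5514 bases apart. Txnip lies at 96557957 to 96561883 of chromosome 3, Errfi1 at 150853919 to 150868892 of chromosome 4, Cebpd at 15887286 to 15891031 of chromosome 16, Sgk1 at 21882184 to 21999903 of chromosome 10 and Per1 at 69095217 to 69109960 of chromosome 11, all on the plus strand. Fkbp5 at 28399094 to 28517527 of chromosome 17, Zbtb16 at 48654297 to 48836222 of chromosome 9 and Tsc22d3 at 140539528 to 140600659 of chromosome X are on the minus strand. Mt2, Txnip, Errfi1 and Cebpd overlap Gm45774, Gm15441, 1700045H11Rik and Spidr on the opposite strand, and the strand setting of the counting is not given in the sources used here, so reads of these pairs may not be separated. Fkbp5 overlaps AC154912.5 and AC154912.3 on its own strand and AC154912.1 and Gm22146 on the other, and its reads may be shared with them. How reads that match both Mt1 and Mt2 were counted is not given either.

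RefSeq promoter windows (GRCm38.p6) were found for 8 of the 10 members and held 17 start sites; Zbtb16 and Cebpd were not matched. The 250 bases before the start were searched on both strands for the metal response element core TGCACNC or TGCGCNC and for a glucocorticoid response element written as GNACA and TGTNC with 3 bases between them. Windows of Mt2, Mt1, Txnip and Sgk1 are printed because they hold matches to these motifs in the genes with the strongest fracture differences or the widest spread between cell types. Each ends at the base before a RefSeq start on the plus strand and reads 5′ to 3′ with motif matches in capitals. The Sgk1 start is an internal one, so its window lies within the Sgk1 gene and downstream of 4 other RefSeq starts.
Mt2, chr8:94172368-94172617: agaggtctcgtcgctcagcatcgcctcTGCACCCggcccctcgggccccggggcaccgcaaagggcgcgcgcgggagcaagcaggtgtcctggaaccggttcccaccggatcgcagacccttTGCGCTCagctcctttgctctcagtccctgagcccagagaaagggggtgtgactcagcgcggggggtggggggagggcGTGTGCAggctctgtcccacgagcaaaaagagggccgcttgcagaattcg
Mt1, chr8:94178839-94179088: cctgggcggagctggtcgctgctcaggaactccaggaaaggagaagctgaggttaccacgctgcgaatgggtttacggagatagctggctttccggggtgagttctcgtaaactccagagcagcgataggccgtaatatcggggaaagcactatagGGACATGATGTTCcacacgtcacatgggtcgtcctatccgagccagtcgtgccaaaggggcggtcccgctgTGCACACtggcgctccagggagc
Txnip, chr3:96557707-96557956: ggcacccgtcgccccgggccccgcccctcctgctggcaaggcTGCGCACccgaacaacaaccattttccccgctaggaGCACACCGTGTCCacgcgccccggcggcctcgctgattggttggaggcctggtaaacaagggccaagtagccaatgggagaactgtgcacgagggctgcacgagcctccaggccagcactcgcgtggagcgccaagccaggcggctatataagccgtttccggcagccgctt
Sgk1, chr10:21993640-21993889: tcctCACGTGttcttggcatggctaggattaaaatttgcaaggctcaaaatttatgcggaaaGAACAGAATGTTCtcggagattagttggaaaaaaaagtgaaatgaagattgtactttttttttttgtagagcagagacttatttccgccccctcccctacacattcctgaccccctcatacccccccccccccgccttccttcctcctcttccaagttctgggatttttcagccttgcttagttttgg

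The Mt2 window held 3 metal response element cores, which begin 223, 128 and 50 bases before the start, the last of them on the minus strand. At least 3 such cores were found in 1.26% of the 32851 mouse promoter windows, and at least 1 in 21.4%. The Mt1 window held 1 core, 23 to 17 bases before the start, and 1 glucocorticoid response element at 94 to 82 bases, a motif present in 0.387% of windows. The same motif lay 172 to 160 bases before the Txnip start, beside a metal response element core at 208 to 202 bases, and 188 to 176 bases before the start of 1 of the Sgk1 windows, which also carried the E-box CACGTG (6.02% of windows). Another Per1 window held 1 metal response element core, 69 to 63 bases before its start. Per1 and Fkbp5 each had an E-box in 1 window, Errfi1 had the cAMP response element TGACGTCA (1.55% of windows), and STAT motifs of the form TTCNNNGAA (7.02% of windows) were found in 1 window each of Per1, Sgk1 and Tsc22d3. A match describes letters in the window and no binding was measured. Bases after each start were not searched, so the motif counts cover these windows and not whole promoters.

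After filtering, 45328 of 48903 barcodes were analysed (20676 of 24162 Control and 24652 of 24741 Fracture). Of these, 37540 fell into stromal classes named from their markers: 16738 chondrocyte-like, 5898 osteoblast-like, 5835 bone mesenchymal stromal cell (BMSC)-like, 2275 fibroblast-like, 5503 endothelial-like and 1291 smooth muscle-like cells, with 543 cycling stromal cells left unnamed. Libraries held 56543151 to 89126291 UMIs, the smallest barcodes had 1 to 3 UMIs in Control and 1929 in Fracture, and 10 to 23 barcodes were shared between pairs of libraries. The kept cells had a median of 7711 UMIs in Control and 11351 in Fracture. Markers of the named classes differed between the groups: the 7 BMSC markers summed to 27785 and 28340 CPM (UMIs of a gene per 1000000 UMIs of the class) in Control and 2593 and 2950 CPM in Fracture BMSC-like cells. The fibroblast markers went from 16134 and 19301 to 4984 and 5380 CPM, the osteoblast markers from 106542 and 124716 to 44685 and 58231 CPM and the smooth muscle markers from 37384 and 36998 to 18721 and 19977 CPM, so that these classes joined cells of unequal marker level. Smooth muscle-like cells had a median mitochondrial share of 6.84% and 5.37% in Control and 2.84% and 2.94% in Fracture. RNA of other cells also moved with the groups. Chondrocyte markers summed to 2081 and 602 CPM in Control and to 15453 and 15801 CPM in Fracture endothelial-like cells, to 907 and 134 against 10609 and 6908 CPM in smooth muscle-like cells, and to 2847 and 1805 against 8793 and 8523 CPM in fibroblast-like cells. Erythroid markers moved in the same direction, from 867 and 159 to 2844 and 3026 CPM in endothelial-like cells and from 51.5 and 113 to 3659 and 3739 CPM in smooth muscle-like cells. In BMSC-like cells chondrocyte markers went from 631 and 254 to 2966 and 2976 CPM and erythroid markers from 120 and 204 to 770 and 1952 CPM. Erythroid markers went from 19.4 and 80.1 to 197 and 203 CPM in osteoblast-like, from 133 and 343 to 932 and 977 CPM in chondrocyte-like and from 33.6 and 88.0 to 299 and 765 CPM in fibroblast-like cells. Neutrophil and basophil markers were lower in both Fracture preparations of all 6 classes, for example at 526 and 231 against 33.4 and 31.8 CPM in chondrocyte-like cells. The members were not used for clustering.

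Of the 60 pairs of a member and a stromal class, 38 differed between Fracture and Control, 15 higher and 23 lower in Fracture (edgeR quasi-likelihood test on UMIs summed per preparation, n = 2 per group, adjusted p under 0.05 over all genes tested). All 10 members differed in BMSC-like cells, 3 higher and 7 lower, where 46.3% of 14254 genes tested were called (23.3% higher and 22.9% lower). In chondrocyte-like cells 6 members were called, 3 in each direction, against 37.1% of all genes (19.0% higher and 18.1% lower). In endothelial-like cells 7 were called, 3 higher and 4 lower, against 35.8% of all genes (18.7% and 17.1%). In fibroblast-like cells 1 was higher and 5 were lower, against 17.1% of all genes (8.20% and 8.91%), in smooth muscle-like cells 2 were higher and 3 lower, against 25.4% (13.2% and 12.2%), and in osteoblast-like cells 3 were higher and 1 lower, against 15.3% (9.26% and 6.00%). Values of the 4 preparations did not overlap between the groups in 52 of the 60 pairs. Such overlap was not counted over all genes, so this number is not read as a result about the members. The labels do not say whether preparations came from separate mice, so these p-values measure the spread between preparations.

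Calls were fewer without a Fracture than without a Control preparation. Each such fit takes its spread only from the group that keeps 2 preparations. With Fracture 1 or Fracture 2 left out, edgeR called 6 and 6 members in BMSC-like, 3 and 3 in chondrocyte-like, 2 and 3 in smooth muscle-like and 2 and 0 in osteoblast-like cells, and 0 in fibroblast-like and endothelial-like cells. In the fits with 0 members called, 0 genes of any kind were called (1679 to 4281 genes had an unadjusted p under 0.05), and of the members 5 in fibroblast-like, 6 in endothelial-like and 4 in osteoblast-like cells had an unadjusted p under 0.05. With a Control preparation left out, 6 to 10 members were called in each of the 6 classes, where 24.5% to 54.1% of all genes were called, against 0% to 17.8% without a Fracture preparation. No called change turned its direction when any single preparation was left out.

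**Figure D1:**
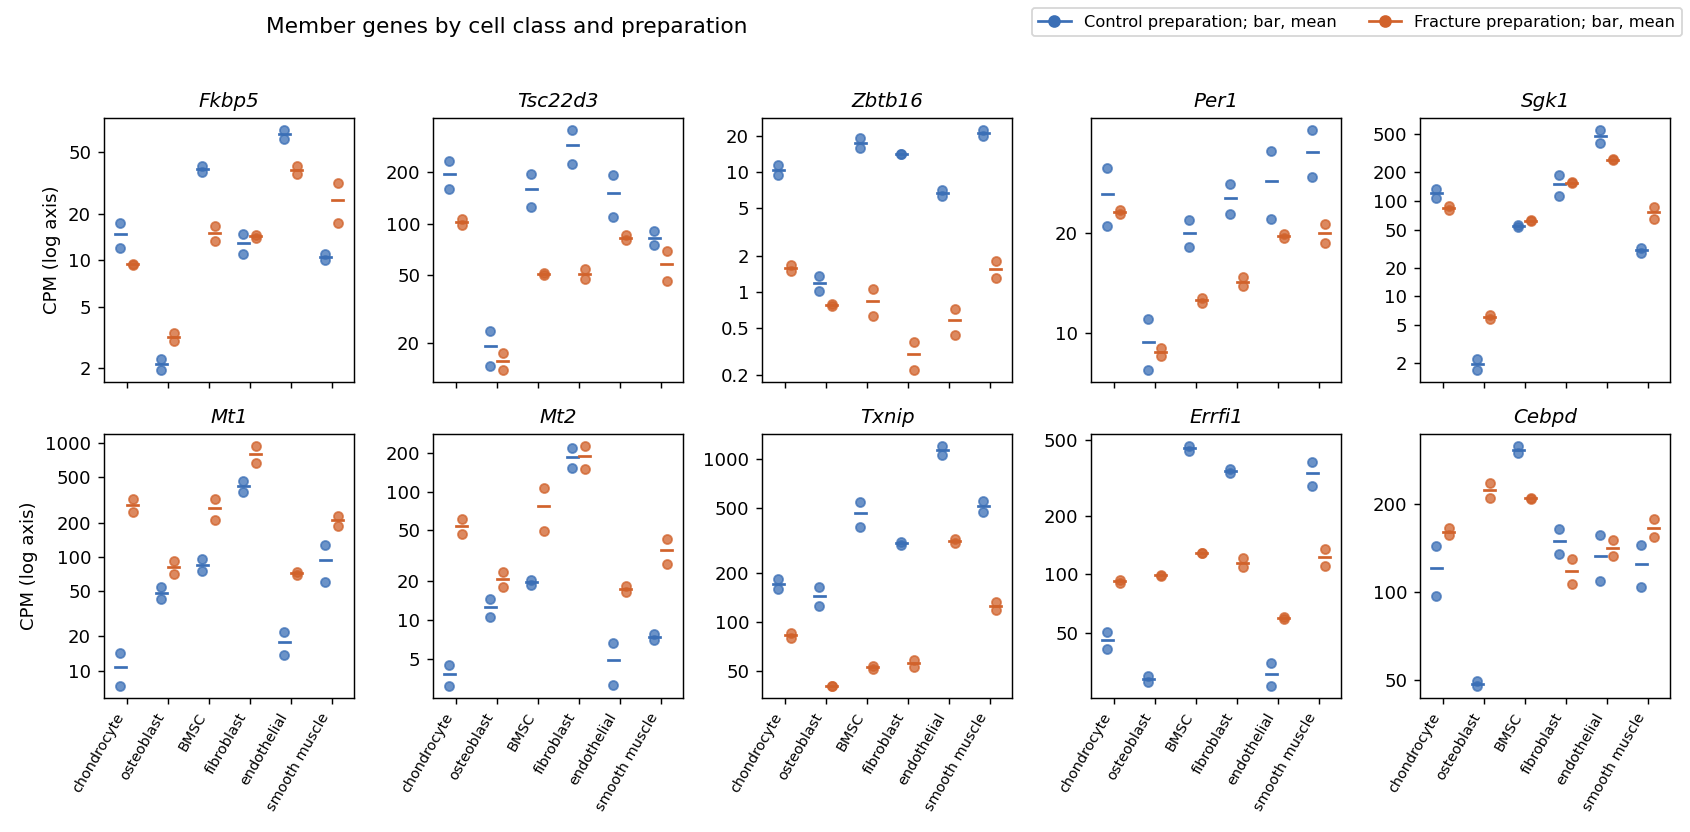
CPM of each of the 10 members (log axis, unscaled CPM) in the 6 stromal classes, with 1 point per preparation (blue, Control; orange, Fracture) and a bar at the mean of the 2 preparations. Mt1 points of Fracture lie above those of Control in all 6 classes and Txnip and Zbtb16 points lie below, whereas Errfi1 moves up in chondrocyte-like, osteoblast-like and endothelial-like cells and down in the other classes.

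Mt1 was higher in Fracture in 4 of the 6 classes. In chondrocyte-like cells it was 13.4 and 7.02 CPM in the Control preparations and 259 and 343 CPM in the Fracture preparations (scaled by trimmed mean of M-values, TMM), a log2 fold change of 4.87 ± 0.40 (SE, adjusted p = 0.00364) or 29.2-fold. These CPM rested on 432 and 91 UMIs in Control and on 22007 and 32810 UMIs in Fracture. In BMSC-like cells Mt1 rose from 69.6 and 89.5 to 227 and 350 CPM (log2 1.86 ± 0.25, adjusted p = 0.00516). Endothelial-like cells went from 20.8 and 13.2 to 76.9 and 73.2 CPM (log2 2.14 ± 0.24, adjusted p = 0.0084), and fibroblast-like cells, where Mt1 was highest, from 463 and 356 to 689 and 980 CPM (log2 1.03 ± 0.23, adjusted p = 0.0453). The 2 remaining classes had higher values in both Fracture preparations without passing the test. Osteoblast-like cells had 42.9 and 57.2 CPM in Control and 67.5 and 91.3 CPM in Fracture (adjusted p = 0.0914), and smooth muscle-like cells 128 and 60.1 CPM in Control and 190 and 236 CPM in Fracture (adjusted p = 0.0691). The class order changed with the group. On unscaled means in Control, fibroblast-like cells (418 CPM) were followed by smooth muscle-like (93.3 CPM) and BMSC-like cells (85.2 CPM), which overlapped, then osteoblast-like cells (48.6 CPM), and endothelial-like (17.7 CPM) and chondrocyte-like cells (10.8 CPM) overlapped at the bottom. In Fracture, chondrocyte-like cells (285 CPM) stood next to fibroblast-like cells (809 CPM) and overlapped BMSC-like cells (267 CPM).

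Mt2, the neighbouring metallothionein gene, was higher in chondrocyte-like, BMSC-like, endothelial-like and smooth muscle-like cells. Its chondrocyte values were 4.23 and 2.93 CPM in Control and 48.6 and 65.5 CPM in Fracture (log2 3.98 ± 0.26, adjusted p = 0.00243, 15.8-fold). BMSC-like cells went from 17.4 and 19.2 to 52.5 and 115 CPM (log2 2.20 ± 0.39, adjusted p = 0.0106), or 1.53 on the log2 scale without Fracture 2. Endothelial-like cells had 6.33 and 2.98 CPM in Control and 17.2 and 19.2 CPM in Fracture (log2 1.95 ± 0.35, adjusted p = 0.019), or 2.61 without Control 1. Smooth muscle-like cells went from 7.89 and 7.03 to 27.5 and 43.6 CPM (log2 2.22 ± 0.32, adjusted p = 0.00987). The fibroblast-like class, which held the most Mt2 in Control, showed overlapping values of 220 and 146 CPM in Control and 153 and 235 CPM in Fracture (log2 0.08 ± 0.29, adjusted p = 0.876). In osteoblast-like cells Mt2 was 10.5 and 15.4 CPM in Control and 17.1 and 23.4 CPM in Fracture (adjusted p = 0.138).

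Several metallothionein values outside chondrocyte-like cells depended on how cells were chosen. With cells over 1% chondrocyte-marker UMIs left out, a choice made after seeing the data, endothelial Mt1 and Mt2 were still called (log2 1.45, adjusted p = 0.0156, and log2 1.48, adjusted p = 0.0364), whereas fibroblast Mt1 was not (log2 0.93, adjusted p = 0.0705). Such cells made up 12.8% and 11.2% of Fracture against 0.673% and 0.320% of Control endothelial-like cells. With clusters made without integration, BMSC Mt1 and Mt2 were not called (log2 0.59, adjusted p = 0.0503, and log2 0.09, adjusted p = 0.732), and endothelial Mt1 was smaller (log2 0.67, adjusted p = 0.0426) and Mt2 not called (log2 0.72, adjusted p = 0.0581). Fibroblast Mt1 was then not called either (log2 0.91, adjusted p = 0.0501). The part of chondrocyte and erythroid RNA in the remaining differences was not tested; erythroid-like cells of these libraries held 209 to 355 CPM of Mt1.

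Txnip, the thioredoxin-binding arrestin, was lower in Fracture in all 6 classes. The largest change was in BMSC-like cells, from 354 and 511 CPM in Control to 55.2 and 58.0 CPM in Fracture (log2 -2.93 ± 0.20, adjusted p = 0.00132), a 7.64-fold difference. Fibroblast-like cells went from 294 and 299 to 59.6 and 55.0 CPM (log2 -2.37 ± 0.12, adjusted p = 0.00487) and smooth muscle-like cells from 555 and 475 to 135 and 122 CPM (log2 -2.01 ± 0.15, adjusted p = 0.00356). In every class both Fracture values lay below both Control values. Osteoblast-like cells had 125 and 172 CPM in Control and 38.6 and 40.5 CPM in Fracture (log2 -1.91 ± 0.17, adjusted p = 0.00791). Endothelial-like cells, with the most Txnip in both groups, fell from 1014 and 1156 to 333 and 323 CPM (log2 -1.73 ± 0.10, adjusted p = 0.00597). The smallest difference was in chondrocyte-like cells, with 172 and 153 against 89.8 and 84.4 CPM (log2 -0.90 ± 0.08, adjusted p = 0.00392).

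Zbtb16, the repressor PLZF, had low counts and was lower in Fracture in 5 classes. BMSC-like cells had 17.9 and 15.0 CPM in Control (281 and 199 UMIs) and 0.663 and 1.14 CPM in Fracture (4 and 8 UMIs), a log2 fold change of -4.15 ± 0.27 (adjusted p = 0.00128). Chondrocyte-like cells went from 10.8 and 9.18 to 1.74 and 1.60 CPM (log2 -2.59 ± 0.13, adjusted p = 0.00158) and endothelial-like cells from 6.76 and 6.07 to 0.739 and 0.461 CPM (log2 -3.42 ± 0.31, adjusted p = 0.00698). The endothelial value was -4.37 with cells over 1% chondrocyte-marker UMIs left out and -4.81 with clusters made without integration, and the BMSC value -4.82 at clustering resolution 0.2. Control and Fracture values were far apart in each of these classes. Fibroblast-like cells had 14.1 and 13.6 CPM in Control and 0.225 and 0.397 CPM in Fracture (adjusted p = 0.00512), where the Fracture values rest on 2 and 4 UMIs. Smooth muscle-like cells had 20.5 and 22.7 CPM against 1.31 and 1.84 CPM (adjusted p = 0.00487), resting on 2 and 3 Fracture UMIs. Osteoblast-like cells held little Zbtb16 in either group, 1.02 and 1.42 CPM in Control and 0.759 and 0.764 CPM in Fracture (adjusted p = 0.215).

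Tsc22d3 and Fkbp5, a target and a feedback regulator of the glucocorticoid receptor, were lower in fewer classes. Tsc22d3, encoding GILZ, went from 351 and 216 to 55.0 and 49.6 CPM in fibroblast-like cells (log2 -2.44 ± 0.26, adjusted p = 0.00958). BMSC-like cells had 181 and 118 CPM in Control and 53.5 and 55.5 CPM in Fracture (log2 -1.45 ± 0.21, adjusted p = 0.00653), and chondrocyte-like cells 218 and 153 against 112 and 105 CPM (log2 -0.78 ± 0.18, adjusted p = 0.0344). Control 1 was higher than Control 2 in all 6 classes, and apart from smooth muscle-like cells the Control preparations lay further apart than the Fracture preparations. Endothelial-like (184 and 106 against 88.8 and 84.6 CPM), smooth muscle-like (91.5 and 75.8 against 69.9 and 47.3 CPM) and osteoblast-like cells (23.7 and 15.4 against 16.6 and 13.9 CPM) did not pass the test for Tsc22d3, with adjusted p of 0.0963, 0.152 and 0.329. Fkbp5 was lower in BMSC-like cells, with 34.8 and 38.2 CPM in Control and 17.7 and 14.6 CPM in Fracture (log2 -1.18 ± 0.14, adjusted p = 0.0039). Endothelial-like cells, with the most Fkbp5, went from 58.6 and 67.1 to 37.5 and 42.7 CPM (log2 -0.65 ± 0.12, adjusted p = 0.0193). In the other 4 classes the Fkbp5 difference ran from log2 -0.50 in chondrocyte-like cells (16.3 and 11.6 against 9.80 and 10.0 CPM, adjusted p = 0.0928) to 1.21 in smooth muscle-like cells (11.1 and 10.2 against 32.0 and 17.8 CPM, adjusted p = 0.0579), none past the threshold.

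Per1, the clock repressor, had log2 differences between -0.83 and -0.03 over the 6 classes. It was lower in fibroblast-like cells, with 27.9 and 21.9 CPM in Control and 14.1 and 15.3 CPM in Fracture (log2 -0.80 ± 0.17, adjusted p = 0.0414), and in BMSC-like cells, with 20.4 and 17.0 against 13.1 and 13.9 CPM (log2 -0.47 ± 0.14, adjusted p = 0.0497). Both calls stood near the threshold and were lost under DESeq2, with adjusted p of 0.111 and 0.21. Neither end of that range was called, with an adjusted p of 0.0647 in smooth muscle-like and 0.914 in chondrocyte-like cells. The time of day at which the bones were taken is not given in the sources used here.

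Sgk1, the serum- and glucocorticoid-regulated kinase, moved in opposite directions in different classes. Endothelial-like cells, with the most Sgk1, had 524 and 385 CPM in Control and 276 and 285 CPM in Fracture (log2 -0.69 ± 0.16, adjusted p = 0.0338); with cells over 1% chondrocyte-marker UMIs left out the value was -0.59 (adjusted p = 0.0518), and with clusters made without integration -0.53 (adjusted p = 0.0682). Osteoblast-like cells, with the least, rose from 2.23 and 1.79 to 6.07 and 5.83 CPM (log2 1.55 ± 0.17, adjusted p = 0.0119). Smooth muscle-like cells rose from 32.6 and 28.9 to 87.6 and 66.4 CPM (log2 1.31 ± 0.20, adjusted p = 0.0117), a call lost with clusters made without integration (log2 0.75, adjusted p = 0.053). BMSC-like cells had 52.1 and 49.7 CPM in Control and 65.1 and 68.3 CPM in Fracture (log2 0.39 ± 0.08, adjusted p = 0.0185), a direction that turned to -1.01 (adjusted p = 0.00447) with clusters made without integration. Sgk1 values overlapped in fibroblast-like cells (184 and 109 against 160 and 160 CPM, adjusted p = 0.774) and were 125 and 101 against 91.3 and 85.5 CPM in chondrocyte-like cells (adjusted p = 0.0759).

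Errfi1, the EGF receptor inhibitor MIG6, split the classes into 3 that rose and 3 that fell. In Control it was high in BMSC-like, fibroblast-like and smooth muscle-like cells, and these were the classes in which it was lower in Fracture. BMSC-like cells went from 407 and 434 to 139 and 141 CPM (log2 -1.59 ± 0.08, adjusted p = 0.000789). Fibroblast-like cells went from 349 and 323 to 111 and 126 CPM (log2 -1.50 ± 0.13, adjusted p = 0.00671) and smooth muscle-like cells from 387 and 289 to 137 and 112 CPM (log2 -1.44 ± 0.20, adjusted p = 0.0088). The classes with little Errfi1 in Control had more in Fracture. Osteoblast-like cells rose from 29.9 and 29.2 to 94.6 and 98.7 CPM (log2 1.71 ± 0.07, adjusted p = 0.00244, 3.28-fold). Chondrocyte-like cells rose from 47.3 and 39.4 to 95.0 and 99.0 CPM (log2 1.16 ± 0.10, adjusted p = 0.00424) and endothelial-like cells from 33.2 and 25.5 to 62.1 and 61.6 CPM (log2 1.08 ± 0.15, adjusted p = 0.0119). The unscaled class means ranged from 28.8 to 451 CPM in Control and from 59.2 to 130 CPM in Fracture, where smooth muscle-like cells (123 CPM) overlapped both BMSC-like (130 CPM) and fibroblast-like cells (115 CPM), which did not overlap each other. Endothelial Errfi1 was 0.68 on the log2 scale and not called (adjusted p = 0.0516) with clusters made without integration, and 0.79 (adjusted p = 0.0266) with cells over 1% chondrocyte-marker UMIs left out.

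Cebpd, encoding C/EBPδ, was called in 2 classes. Osteoblast-like cells rose from 47.8 and 52.1 to 226 and 208 CPM (log2 2.12 ± 0.08, adjusted p = 0.00244), a 4.34-fold difference that took this class from the lowest level in Control to the highest in Fracture on unscaled means (48.6 and 222 CPM). In Fracture it overlapped the BMSC-like class (209 CPM). BMSC-like cells themselves went from 292 and 280 to 221 and 228 CPM (log2 -0.35 ± 0.07, adjusted p = 0.016). Cebpd was 135 and 93.2 CPM in Control and 173 and 166 CPM in Fracture in chondrocyte-like cells (adjusted p = 0.0783). The 3 other classes ranged from log2 -0.28 to 0.41 with adjusted p of 0.178 to 0.42.

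**Figure D2:**
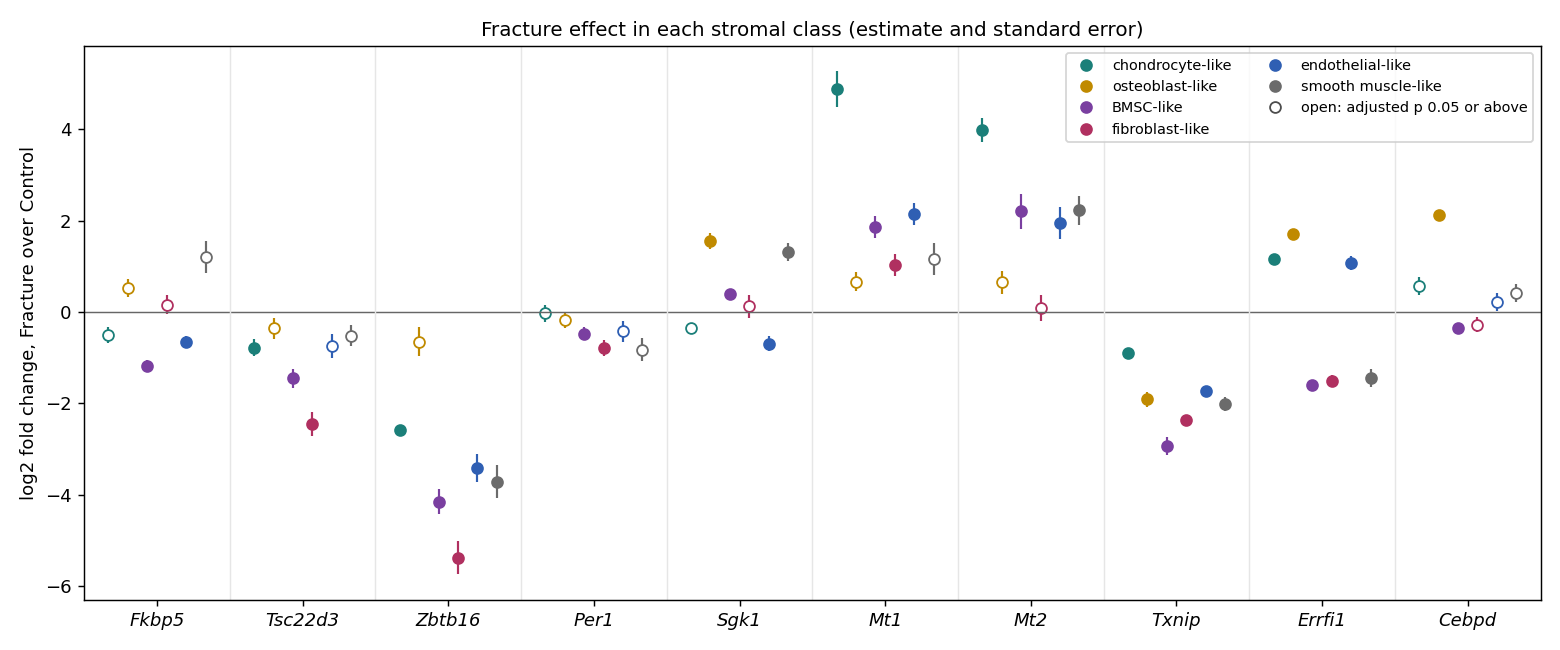
Log2 fold change of Fracture over Control for each member in the 6 stromal classes (points, edgeR estimates; vertical lines, standard errors; open points, adjusted p of 0.05 or above; n = 2 preparations per group). Txnip lies between -2.93 and -0.90 in all classes, Mt1 and Mt2 reach 4.87 and 3.98 in chondrocyte-like cells, and Errfi1 and Sgk1 have called points on both sides of 0.

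The differences between classes were themselves tested with all 6 classes in 1 edgeR model that kept each preparation as a block. All 10 members had a fracture effect that differed between classes, as did 59.4% of the 16955 genes tested, with adjusted p from 6.36e-11 (Errfi1) to 0.00288 (Per1). The effect in each class was then set against the mean effect of the other 5. The chondrocyte-like class stood apart for 9 members (32.2% of all genes), among them a larger rise of Mt1 (3.43 ± 0.29 log2 units above the mean of the others, adjusted p = 1.06e-07) and of Mt2 (2.50 ± 0.30) and a smaller fall of Txnip (1.25 ± 0.15). The osteoblast-like class differed for 8 (21.7% of all genes), with Cebpd 1.99 ± 0.15, Errfi1 2.17 ± 0.12 and Zbtb16 3.24 ± 0.36 log2 units above the others, and Mt1 -1.53 below them. Zbtb16 was near the floor in osteoblast-like cells of both groups (unscaled means of 1.18 CPM in Control and 0.78 CPM in Fracture), which left little room for a fall. The BMSC-like class differed for 5 (27.0% of all genes), all lower, from Errfi1 (-1.83 ± 0.12) to Tsc22d3 (-0.53). The fibroblast-like class differed for 6 (13.3% of all genes), also all lower, with Mt2 -2.10 ± 0.25 and Tsc22d3 -1.63 ± 0.11. The endothelial-like class differed for 4 (21.1% of all genes), with Sgk1 at -1.30 ± 0.12, and the smooth muscle-like class for 5 (17.6% of all genes), with Fkbp5 at 1.56 ± 0.34 (adjusted p = 0.00353). The unequal marker RNA of other cells given above enters these contrasts, and its part was not tested.

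BMSC-like cells divided into diaphyseal (dpMSC-like, 3413 cells) and metaphyseal (mpMSC-like, 2422 cells) subclasses. Control preparations held 1699 dpMSC-like among 2560 BMSC-like cells and 1222 among 1711, and Fracture preparations 216 among 734 and 276 among 830, so the BMSC-like values join the subclasses in different proportions. The members called numbered 8 in dpMSC-like cells, 3 higher and 5 lower (42.5% of all genes, 22.3% higher and 20.2% lower), and 6 in mpMSC-like cells, 3 in each direction (28.5% of all genes, 15.1% higher and 13.4% lower). Mt1 rose from 86.4 and 110 to 423 and 657 CPM in dpMSC-like cells (log2 2.46 ± 0.25, adjusted p = 0.00175) and from 47.2 and 48.7 to 131 and 188 CPM in mpMSC-like cells (log2 1.74 ± 0.18, adjusted p = 0.00468). Mt2 was higher by 2.95 ± 0.37 in dpMSC-like cells (adjusted p = 0.00321), or 2.32 without Fracture 2. In mpMSC-like cells it was higher by 2.19 ± 0.39 (adjusted p = 0.0152), or 1.58 without Fracture 2. In both subclasses fewer members were called without a Fracture than without a Control preparation, so the loss of calls was not particular to Mt2. Txnip went from 505 and 646 to 62.4 and 74.0 CPM in dpMSC-like cells (log2 -3.07 ± 0.17, adjusted p = 0.000462) and from 155 and 237 to 51.0 and 49.1 CPM in mpMSC-like cells (log2 -1.97 ± 0.21, adjusted p = 0.00485). Sgk1 was higher in both, from 78.9 and 67.6 to 141 and 148 CPM and from 16.6 and 13.3 to 28.3 and 26.4 CPM (log2 0.98 and 0.86, adjusted p = 0.00272 and 0.0166), each above the 0.39 of the whole BMSC-like class. Cebpd and Per1, called lower in the whole class, were called in neither subclass. Cebpd was -0.30 in dpMSC-like (adjusted p = 0.0808) and 0.15 in mpMSC-like cells (adjusted p = 0.227), and Per1 -0.17 (adjusted p = 0.468) and -0.35 (adjusted p = 0.275). Zbtb16 was lower in both, by log2 -4.43 ± 0.45 in dpMSC-like cells (adjusted p = 0.00176, on 1 and 4 Fracture UMIs) and -1.80 ± 0.45 in mpMSC-like cells (adjusted p = 0.0378, on 3 and 4 Fracture UMIs). The dpMSC-like value was -5.54 without Fracture 2, and the mpMSC-like call was lost under DESeq2 (adjusted p = 0.28). Errfi1 was called in dpMSC-like cells, with 629 and 591 CPM in Control and 178 and 197 CPM in Fracture dpMSC-like cells (log2 -1.70 ± 0.10, adjusted p = 0.000566). In mpMSC-like cells its values overlapped, at 111 and 117 against 118 and 111 CPM (log2 0.01 ± 0.08, adjusted p = 0.94). Fkbp5 fell by 1.22 on the log2 scale in dpMSC-like cells (adjusted p = 0.00229) and was -0.05 in mpMSC-like cells (adjusted p = 0.879). Differences between the subclasses were not tested. Markers of the dpMSC-like class summed to 42979 and 37763 CPM in Control and to 4707 and 5589 CPM in Fracture, and clustering without integration at resolution 0.2 left 15 and 32 Fracture cells in it. Its erythroid markers were 178 and 245 CPM in Control and 1692 and 3658 CPM in Fracture, and the part of these gaps in the dpMSC-like values was not tested; in mpMSC-like cells the own markers were 8563 and 8017 against 9733 and 8624 CPM. Diaphyseal markers were lower in Fracture mpMSC-like cells too, with Cxcl12 at 5156 and 5756 against 922 and 885 CPM and Adipoq at 406 and 377 against 19.5 and 13.1 CPM. Their erythroid markers went from 46.3 and 123 to 317 and 1041 CPM and their chondrocyte markers from 866 and 507 to 2982 and 2858 CPM, and the part of these in the mpMSC-like values was not tested.

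The chondrocyte-like class held a cluster led by Col10a1, the collagen of hypertrophic cartilage (12650 cells), and a cluster led by Serpina1 genes (4088 cells). The groups filled them unequally: the Col10a1-led cluster held 988 of 2098 and 333 of 685 chondrocyte-like cells in Control and 5537 of 6814 and 5792 of 7141 in Fracture, so the values of the whole class join the clusters in different proportions. In the Col10a1-led cluster 7 members were called (28.0% of all genes) and in the Serpina1-led cluster 6 (15.0%). Calls in both clusters were fewer without a Fracture than without a Control preparation. Metallothioneins were higher in both: Mt1 went from 19.1 and 8.42 to 252 and 341 CPM in the Col10a1-led cluster (log2 4.41 ± 0.45, adjusted p = 0.00624; 5.16 without Control 1). It went from 8.81 and 6.01 to 255 and 300.2 CPM in the Serpina1-led cluster (log2 5.21 ± 0.23, adjusted p = 0.004). Mt2 was higher by 3.51 ± 0.37 in the Col10a1-led cluster (4.17 without Control 1) and by 4.64 ± 0.16 in the Serpina1-led cluster. Errfi1 went from 48.0 and 50.5 to 70.0 and 72.7 CPM in the Col10a1-led cluster (log2 0.54 ± 0.07, adjusted p = 0.00913) and from 48.6 and 30.7 to 203 and 217 CPM in the Serpina1-led cluster (log2 2.40 ± 0.23, adjusted p = 0.0113). Cebpd rose in the Serpina1-led cluster, from 142 and 89.4 to 320 and 317 CPM (log2 1.46 ± 0.23, adjusted p = 0.0255), with a log2 difference of 0.19 (adjusted p = 0.38) in the Col10a1-led cluster. Sgk1 and Txnip fell in the Col10a1-led cluster by 0.74 and 1.13 on the log2 scale (adjusted p = 0.00476 and 0.00265) and were 0.38 and -0.39 in the Serpina1-led cluster (adjusted p = 0.226 and 0.156). Zbtb16 and Tsc22d3 were lower in both clusters, with log2 values of -2.71 and -0.88 in the Col10a1-led and -1.89 and -0.91 in the Serpina1-led cluster. With a single preparation left out, log2 values in the Serpina1-led cluster ran from 2.12 to 2.78 for Errfi1 and from 1.17 to 1.83 for Cebpd. The gap between the clusters was not tested. With a replicate block, 3 members were called in the Serpina1-led cluster, and the share of all genes called under that block is not given here. The split of the class depended on the integration. Without it, the larger Col10a1-led cluster held 126 and 32 Control and 5570 and 5839 Fracture cells. A cluster led by Fxyd2 and Serpina1 genes then held 1836 and 598 Control and 1235 and 1294 Fracture cells. With integration at clustering resolution 0.2, a chondrocyte-like cluster of 6176 cells was led by Col10a1 and another of 6300 cells by Omd. The Col10a1-led cluster used here is therefore not read as hypertrophic cells alone. Members were not tested separately in the clusters of these other clusterings.

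**Figure D3:**
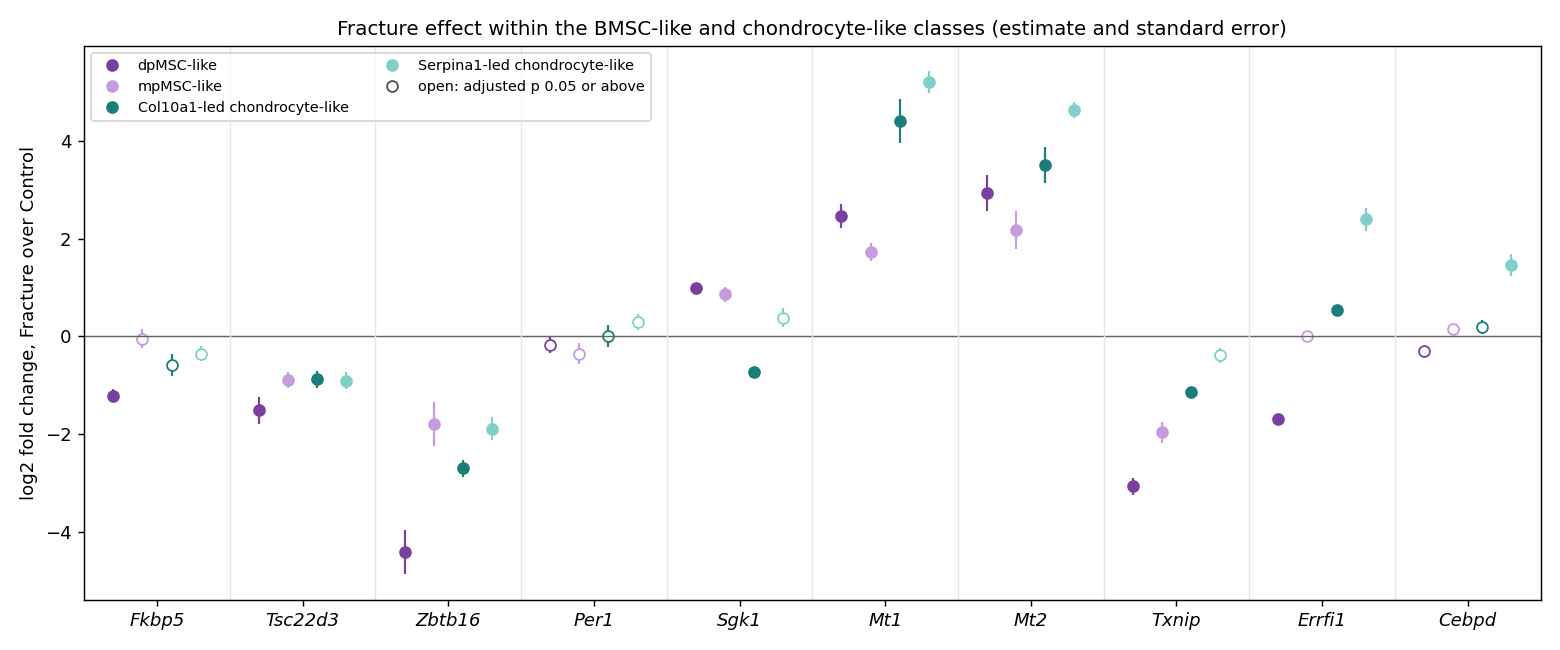
Log2 fold change of Fracture over Control for each member in the dpMSC-like and mpMSC-like subclasses and in the Col10a1-led and Serpina1-led chondrocyte-like clusters (points, edgeR estimates; vertical lines, standard errors; open points, adjusted p of 0.05 or above; n = 2 preparations per group). Errfi1 ranges from -1.70 in dpMSC-like cells through 0.01 in mpMSC-like cells to 2.40 in the Serpina1-led cluster.

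Summing all stromal cells of a preparation gave 7 members called, 3 higher and 4 lower (39.6% of 19753 genes, 18.6% higher and 21.0% lower). Here too calls were fewer without a Fracture than without a Control preparation. Mt1 rose from 51.0 and 49.9 to 253 and 335 CPM (log2 2.54 ± 0.16, adjusted p = 0.0042). Errfi1 fell from 121 and 129 to 99.5 and 102 CPM (log2 -0.31 ± 0.07, adjusted p = 0.0314), and Sgk1 values overlapped (log2 0.02 ± 0.11, adjusted p = 0.921). These sums also reflect the make-up of the cells: chondrocyte-like cells were 23.1% and 13.8% of the stromal cells in Control and 60.1% and 58.7% in Fracture after the bead depletion and barcode selection described. Giving the 6 classes equal weight changed the log2 ratio of unscaled means from 2.33 to 1.36 for Mt1, from 1.87 to 0.75 for Mt2, from -0.55 to -1.32 for Tsc22d3, from -0.01 to -0.56 for Per1 and from -0.52 to -0.999 for Errfi1. Txnip was much the same either way (-1.92 pooled and -2.02 weighted), as was Cebpd (0.31 and 0.20). Fkbp5 moved from -0.85 to -0.47, Zbtb16 from -2.76 to -3.67 and Sgk1 from -0.19 to -0.35. No sign turned among these unscaled ratios, but signs near 0 depend on the scaling. With TMM scaling the Sgk1 value of all stromal cells was 0.02, as given above.

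**Figure D4:**
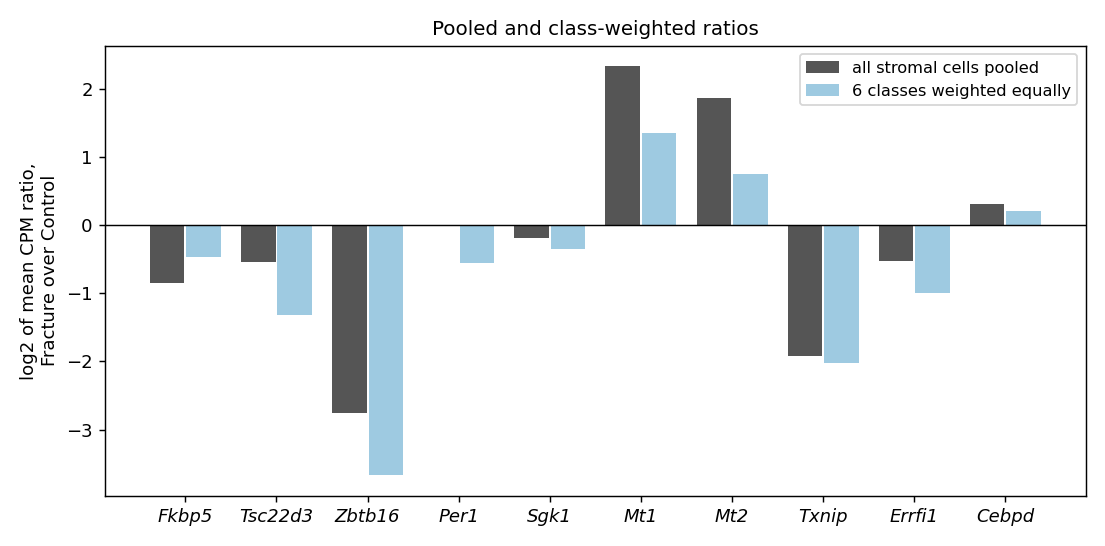
Log2 ratio of the mean unscaled CPM of Fracture over Control for each member, with all stromal cells pooled (dark bars) and with the 6 classes weighted equally (light bars); bars start at 0 and no error is drawn. Mt1 and Mt2 bars shrink under equal weights (2.33 to 1.36 and 1.87 to 0.75) and the Tsc22d3 and Errfi1 bars lengthen downwards.

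The share of cells with at least 1 UMI of a gene was compared after thinning each cell to 1000 UMIs, which left out 5 to 93 Control cells per class over both preparations and 0 Fracture cells. The groups did not overlap in 52 of the 60 pairs, and with 2 preparations per group an exact two-sided permutation test cannot go below p = 0.333. Detection was not compared over all genes, so the 52 pairs are not read as a result about the members. Mt1 was detected in 1.53% and 1.17% of Control and 13.1% and 15.8% of Fracture chondrocyte-like cells (8.58% and 7.45% against 44.2% and 50.2% without thinning). In fibroblast-like cells Mt1 was detected in 26.9% and 27.7% against 40.1% and 46.5%, and in endothelial-like cells in 1.29% and 1.61% against 3.72% and 3.34%. The erythroid-like cells of these libraries held Mt1 in 15.1% and 15.0% of Control and 9.18% and 11.3% of Fracture cells, so they give no background free of Mt1. Txnip went from 31.2% and 40.0% to 4.50% and 7.11% of BMSC-like cells and from 62.9% and 62.0% to 26.9% and 25.6% of endothelial-like cells, against 8.04% and 5.41% in Control and 8.70% and 10.6% in Fracture erythroid-like cells. Errfi1 went from 32.3% and 31.6% to 12.3% and 11.7% of BMSC-like cells and from 3.05% and 2.37% to 9.40% and 7.35% of osteoblast-like cells, with at most 0.704% in erythroid-like cells. Sgk1 in BMSC-like cells was detected in fewer thinned Fracture cells (4.09% and 3.73%) than Control cells (6.02% and 5.56%) although its CPM was higher, so no order is read from that share.

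Genes of the surrounding pathways were described beside the members, and each gene called higher or lower here passed the same edgeR test (adjusted p under 0.05). The shares of all genes called higher and lower, against which these counts are read, were 19.0% and 18.1% in chondrocyte-like, 9.26% and 6.00% in osteoblast-like, 23.3% and 22.9% in BMSC-like, 8.20% and 8.91% in fibroblast-like, 18.7% and 17.1% in endothelial-like and 13.2% and 12.2% in smooth muscle-like cells. The list of 9 for the glucocorticoid receptor and ligand handling held no gene of a ligand itself. In BMSC-like cells 7 of 9 tested genes of this list were lower and 0 higher (median log2 -0.72, against -0.03 for all genes). There were 5 of 7 lower in endothelial-like, 4 of 7 in smooth muscle-like and 3 of 8 in fibroblast-like cells, and 1 of 7 in osteoblast-like cells, while in chondrocyte-like cells 5 were lower and 2 higher of 9. Nr3c1, the glucocorticoid receptor, was lower in endothelial-like cells (221 and 238 against 134 and 127 CPM, log2 -0.82 ± 0.07), in fibroblast-like cells (212 and 172 against 112 and 113 CPM, log2 -0.77 ± 0.14) and in chondrocyte-like cells (126 and 121 against 93.5 and 92.0 CPM, log2 -0.42 ± 0.05). Crebrf, a regulator linked to turnover of the receptor, went from 73.0 and 85.0 to 24.5 and 27.3 CPM in BMSC-like cells (log2 -1.61 ± 0.12) and was also lower in fibroblast-like, endothelial-like and smooth muscle-like cells (log2 -1.27, -1.01 and -1.44).

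Of 20 other genes that glucocorticoids induce, 9 of 18 tested were higher and 3 lower in chondrocyte-like cells, 7 of 14 higher and 1 lower in osteoblast-like cells, and 6 higher and 7 lower of 17 in BMSC-like cells. In fibroblast-like cells 1 was higher and 4 lower of 16, in endothelial-like cells 3 and 4 of 17, and in smooth muscle-like cells 3 and 7 of 15. The endothelial-like counts lay near the shares of all genes. The called genes of this list went both ways. Nfkbia, the NF-kappaB inhibitor, rose to 353 and 348 CPM in chondrocyte-like cells (log2 1.90 ± 0.08), as did the cell cycle inhibitor Cdkn1a (log2 1.96) and the lipase inhibitor Angptl4 (log2 1.89). Dusp1, a MAP kinase phosphatase, was higher in osteoblast-like (log2 1.48) and BMSC-like cells (log2 1.30). Klf9, a zinc-finger factor, was lower in BMSC-like, fibroblast-like, endothelial-like and smooth muscle-like cells (log2 -1.02, -0.997, -0.80 and -1.25), and the repressor Bcl6 in BMSC-like and fibroblast-like cells (log2 -1.90 and -1.75).

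Genes of metal handling, a list of 12, were higher in 5 and lower in 1 of 10 tested in chondrocyte-like cells, and in 4 and 0 of 8 in smooth muscle-like cells. They were higher and lower in 3 and 2 of 10 in BMSC-like, in 2 and 3 of 10 in endothelial-like, in 2 and 4 of 11 in fibroblast-like, and in 1 and 0 of 9 in osteoblast-like cells. The BMSC-like, endothelial-like and osteoblast-like counts differed little from the shares of all genes. Slc39a14, which imports zinc and iron, was higher in all 6 classes, by 0.45 to 1.42 on the log2 scale. Hmox1, the haem oxygenase, rose from 33.8 and 19.0 to 104 and 62.3 CPM in BMSC-like cells (log2 1.65 ± 0.37) and by 2.65 ± 0.24 in fibroblast-like cells. Slc30a1, the zinc exporter that MTF1 controls, was lower in endothelial-like cells (log2 -1.15), and the iron exporter Slc40a1 was higher in chondrocyte-like (log2 1.58) and lower in BMSC-like cells (log2 -0.60).

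Among 9 thioredoxin and arrestin-domain genes, Arrdc4, a paralogue of Txnip that also responds to sugar, went from 398 and 435 to 75.7 and 83.5 CPM in BMSC-like cells (log2 -2.39 ± 0.09) and was lower in endothelial-like cells (log2 -1.22). Txn1, thioredoxin itself, rose from 344 and 360 to 753 and 723 CPM in BMSC-like cells (log2 1.07 ± 0.08) and was higher in chondrocyte-like, endothelial-like and smooth muscle-like cells (log2 0.60, 0.57 and 0.64). Over the list, 3 were higher and 1 lower of 9 in chondrocyte-like, 2 and 2 of 9 in BMSC-like, 4 and 2 of 8 in endothelial-like, 2 and 1 of 8 in smooth muscle-like, 1 and 1 of 8 in osteoblast-like and 0 and 2 of 8 in fibroblast-like cells. Of the 8 EGF receptor family genes and ligands beside Errfi1, all 8 were tested in fibroblast-like cells alone, where 0 were higher and 3 lower. There were 2 higher and 1 lower of 5 in BMSC-like, 1 and 1 of 4 in chondrocyte-like and in osteoblast-like, 1 and 2 of 4 in endothelial-like and 0 and 0 of 3 in smooth muscle-like cells. The 2 that rose in BMSC-like cells, Hbegf and Ereg, averaged below the 20 CPM required for naming and are named after their values were seen. Hbegf, an EGF receptor ligand, went from 559 and 831 to 134 and 192 CPM in fibroblast-like cells (log2 -2.09) and was higher in endothelial-like cells (log2 1.21), and Egfr was lower in BMSC-like cells (log2 -0.66).

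Of 16 clock genes beside Per1, 7 were higher and 3 lower of 15 in chondrocyte-like cells, 6 and 1 of 14 in osteoblast-like cells, 2 and 5 of 15 in BMSC-like, 0 and 3 of 15 in fibroblast-like, 1 and 3 of 15 in endothelial-like, and 1 and 2 of 13 in smooth muscle-like cells. The smooth muscle-like counts were close to the shares of all genes, as was the number lower in endothelial-like cells. Bhlhe40, a clock repressor that hypoxia and other stimuli induce, was higher in osteoblast-like, BMSC-like and smooth muscle-like cells (log2 2.36, 2.62 and 2.50), and its paralogue Bhlhe41 was lower in chondrocyte-like cells (log2 -1.62). Of 9 genes of C/EBP and IL-6 type signalling, 3 were higher and 1 lower of 9 in chondrocyte-like, 3 and 0 of 8 in osteoblast-like, 3 and 5 of 9 in BMSC-like, 0 and 2 of 9 in fibroblast-like, 1 and 4 of 8 in endothelial-like and 2 and 0 of 8 in smooth muscle-like cells. Socs3, the feedback inhibitor of that pathway, rose from 44.9 and 52.5 to 435 and 393 CPM in osteoblast-like cells (log2 3.09 ± 0.11), in which Cebpd rose, and by 1.56 in endothelial-like cells. Cebpb was higher in chondrocyte-like, osteoblast-like and BMSC-like cells (log2 1.39, 1.00 and 0.70) and lower in fibroblast-like cells (log2 -0.56), and Cebpa was lower in BMSC-like cells (log2 -2.03). Of 6 genes of the SGK family and its targets, 1 was higher in osteoblast-like cells and 0 in the other classes, and 1 was lower in each of chondrocyte-like, osteoblast-like and BMSC-like cells, 2 in each of endothelial-like and smooth muscle-like cells and 3 in fibroblast-like cells. Ndrg1, a substrate of SGK1, was lower in fibroblast-like, smooth muscle-like, endothelial-like and osteoblast-like cells (log2 -2.69, -1.95, -0.94 and -0.83).

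Stress of cell isolation induces some of the same genes, and 20 cell handling and immediate early genes were described for that purpose. They were higher in 14 and lower in 1 of 20 in osteoblast-like cells (median log2 1.64) and higher in 15 and lower in 1 of 20 in BMSC-like cells (median log2 1.11). The counts were 6 and 4 in chondrocyte-like, 4 and 4 in endothelial-like, 1 and 4 in fibroblast-like and 1 and 2 in smooth muscle-like cells. Both endothelial-like counts lay near the shares of all genes, as did the number lower in chondrocyte-like cells. In the Serpina1-led cluster the counts were 9 and 2 (median log2 0.94, against 9.04% of all genes higher and 5.94% lower). In the Col10a1-led cluster they were 3 and 4, near the shares of all genes (14.3% higher and 13.7% lower). They were 18 and 1 in dpMSC-like and 13 and 0 in mpMSC-like cells. Atf3 was higher by 3.43 in osteoblast-like and 4.19 in BMSC-like cells on the log2 scale, and Ier3 was higher in all 6 classes, by 1.17 to 2.58. The heat shock gene Hspa1b was lower in chondrocyte-like, fibroblast-like and endothelial-like cells (log2 -2.27, -2.24 and -1.35). Errfi1 and Cebpd rose with this list in osteoblast-like cells and in the Serpina1-led cluster, whereas in the whole BMSC-like class, where the list was also higher, both fell. That class joins its subclasses in different proportions. Cebpd was called in neither subclass, and Errfi1 was called lower in dpMSC-like but not in mpMSC-like cells. Errfi1 also rose in endothelial-like cells, with 4 of the list higher and 4 lower, near the shares of all genes. The part of handling in these values was not tested.

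Across the 24 sums of 6 classes and 4 preparations, the genes most like each member were ranked by Pearson's r of log2(CPM + 1). A mean of at least 20 CPM was required, which 6571 genes had, and the cell type marker genes among them were left out of the ranking. The sums share libraries and depth. Mt1 was closest to Col3a1 (r = 0.949), Mt2 (r = 0.942) and Thbs2 (r = 0.902), and Mt2 to Mt1, Ssc5d (r = 0.925) and Emp3 (r = 0.911). Txnip was closest to Zscan26 (r = 0.941), D14Abb1e (r = 0.928) and Arglu1 (r = 0.924), and Tsc22d3 to Zbtb20 (r = 0.917), Tsen15 (r = 0.909) and Pam (r = 0.907). Genes close to Sgk1 included Sdcbp (r = 0.955) and Ppfibp1 (r = 0.955), and Fkbp5 was closest to Tmed5 (r = 0.955), Sumo3 (r = 0.954) and Csnk1g1 (r = 0.951), and Per1 to Tenc1 (r = 0.926), Tspyl1 (r = 0.915) and Tom1l2 (r = 0.912). Cebpd was closest to Socs3 (r = 0.821), ahead of 2310047M10Rik (r = 0.725) and Fbxo30 (r = 0.706), and Errfi1 to Zfp703 (r = 0.868), Sgce (r = 0.865) and Pex7 (r = 0.849). Zbtb16 was below the level required.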

How the data were processed

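Single-cell libraries were made with 10x Genomics 3′ version 3 chemistry from bone stromal cells. The authors deposited UMI counts per gene and barcode, made from mm10 alignments with STAR 2.7.3a, UMI-tools 1.0.0 and featureCounts 1.6.4; the study's methods name EmptyDrops as a pre-filter without saying whether it was applied to these tables. Members and gene lists were chosen with earlier results of these data known. Genes in at least 3 barcodes and barcodes with 500 to 6000 genes and at most 25% mitochondrial UMIs were kept, and 718 doublets called by Scrublet (1.58%) stayed in. Seurat 5.3.0 integrated the libraries (30 dimensions) and clustered them at resolution 0.1 without the members and listed genes. A mixed fibroblast and BMSC cluster was separated by a second clustering at resolution 0.08. Classes were named from markers, since no cell annotation was used. Counts were summed per class and preparation, and preparations were taken as the replicates (n = 2 per group). The sums were tested with edgeR 4.0.16 (TMM, filterByExpr, quasi-likelihood, Benjamini-Hochberg over all genes) in R 4.3.3. The interaction model kept preparations as a block. The test was tested on simulated data before use. Alternatives used DESeq2 1.42.0 and other filters, clusterings and cell choices. Motifs were read from RefSeq promoter windows. Library sizes were 56543151 to 89126291 UMIs. The text names every member in each class, the called list genes of at least 20 CPM with the largest changes (up to 3 per list and direction), and the 3 genes most like each member, of which 1 is not reported here.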

Additional observations from a re-analysis of the deposited data

Results flagged for a closer look

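All 10 members had a fracture effect that differed between the 6 stromal classes in 1 edgeR model with preparations as a block. The adjusted p was 6.36e-11 for Errfi1, 3.63e-08 for Tsc22d3, 1.04e-07 for Cebpd, 1.89e-07 for Sgk1, 5.13e-07 for Mt2, 5.49e-07 for Mt1, 5.37e-06 for Zbtb16, 7.4e-06 for Txnip, 0.000104 for Fkbp5 and 0.00288 for Per1, where 59.4% of the genes tested also differed.

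Haematopoietic cells left after the depletion were outside the comparisons and held some members at a higher level in both Fracture than in both Control preparations. In erythroid-like cells the Fracture mean was 320 CPM for Mt1 (Control 258 and 209 CPM), 149 CPM for Mt2, 49.6 CPM for Cebpd, 10.3 CPM for Errfi1 and 8.54 CPM for Sgk1. The share of erythroid-like cells with an Mt1 UMI after thinning to 1000 UMIs went the other way (15.1% and 15.0% in Control, 9.18% and 11.3% in Fracture), so no order is read from it. Chondrocyte markers in erythroid-like cells went from 529 and 120 to 5472 and 3541 CPM, their own erythroid markers from 10883 and 22327 to 83515 and 102041 CPM and their median mitochondrial share from 13.8% and 6.96% to 1.78% and 1.83%. In a granulocyte cluster of 93 and 90 Fracture cells it was 185 CPM for Mt1 (29.5 and 29.5 CPM in Control), 30.8 CPM for Sgk1, 30.2 CPM for Per1, 21.1 CPM for Errfi1 and 19.4 CPM for Mt2. None of these passed edgeR's test (Mt1 adjusted p = 0.307 and 0.0799), which called 0 genes of any kind in either group of cells, with 2096 genes in erythroid-like cells and 2889 in the granulocyte cluster at an unadjusted p under 0.05. DESeq2 called 784 and 1250 genes there, 2 and 4 of them members. Chondrocyte markers in the granulocyte cluster were 512 and 183 CPM in Control and 6972 and 5801 CPM in Fracture, and their part in these values was not tested.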

How the results depend on the processing

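Called log2 changes of members kept direction and call in 635 of 664 results under other settings, lost the call in 28 and reversed in 1, Sgk1 in BMSC-like cells with clusters made without integration (-1.01, adjusted p = 0.00447). With a single preparation left out, 190 of 288 kept the call, 98 lost it and 0 reversed. Of uncalled changes, 27 of 356 became called under other settings and 33 of 152 with a preparation left out. Counts of members called moved beyond 1.5 times to 7 in osteoblast-like cells with the 8 libraries as samples, to 4 in endothelial-like cells with clusters made without integration, and to 9 in smooth muscle-like cells both without a filter and with the 8 libraries as samples. The shares of all genes called under these settings are not given here, so the counts are not read as a change of the members. Leaving out a preparation also moved the counts of members called, and in the class fits the share of all genes called moved too. Each such fit leaves a group of 1 preparation, so these counts are not read as results about the members. The causes were not tested.

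Uncalled changes near 0 turned sign: Per1 in chondrocyte-like cells without a filter (0.0129) and in the Col10a1-led cluster with doublets removed (-0.00846), Fkbp5 in fibroblast-like cells at resolution 0.2 (-0.040), Sgk1 in fibroblast-like cells without integration (-0.19), Errfi1 in mpMSC-like cells without a filter (-0.00614) and Sgk1 in all stromal cells at no more than 10% mitochondrial UMIs (-0.00544). With a single preparation left out, 11 uncalled changes crossed 0, with log2 values from -0.28 to 0.28 for Per1 in chondrocyte-like, -0.37 to 0.070 in osteoblast-like, -0.27 to 0.42 in the Col10a1-led cluster and -0.076 to 0.56 in all stromal cells, from -0.19 to 0.57 for Sgk1 in fibroblast-like cells and -0.12 to 0.19 in all stromal cells, from -0.25 to 0.42 for Mt2 in fibroblast-like cells, from -0.019 to 0.49 for Cebpd in endothelial-like cells, from -0.24 to 0.15 for Fkbp5 and -0.029 to 0.063 for Errfi1 in mpMSC-like cells, and from -0.67 to 0.10 for Tsc22d3 in all stromal cells.

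Same-numbered preparations correlated by 0.0454 to 0.0923 in their deviations from the group means, so the numbers were not taken as pairs. With the replicate block, members called were 6 in chondrocyte-like, 6 in osteoblast-like, 9 in BMSC-like, 4 in fibroblast-like, 6 in endothelial-like and 5 in smooth muscle-like cells, and 3 in the Serpina1-led cluster. Without the block the interaction test called 9 members. The shares of all genes called in these fits are not given here, so the counts are not read as a change of the members. Unscaled CPM shifted the log2 changes of all genes by -0.25 (dpMSC-like) to 0.07 (osteoblast-like) relative to TMM scaling. With 2 preparations per group, differences below the spread between preparations were not detectable, and low counts limit Zbtb16.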
